A study of Mus musculus with 9 samples.

Results

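The SLC7 family of amino acid transporters was examined in brain cortex because Slc7a2, one of the study's several candidate genes on Chr 8, belongs to it. The members are named by a list of gene symbols, a rule that itself uses no measured value, and comprise 10 of the 54532 gene identifiers measured: Slc7a1, Slc7a2, Slc7a3, Slc7a4, Slc7a5, Slc7a6, Slc7a8, Slc7a10, Slc7a11 and Slc7a14. Cortex RNA was sequenced from 3 male mice each of C57BL6/J (B6), C3H/HeJ (C3H) and WSB/EiJ (WSB), aged 8 to 12 weeks. The reference genome is that of B6, a classical laboratory strain like C3H, whereas WSB descends from wild-caught mice. All are inbred and carry no engineered allele, so the mice of a group are repeats of 1 genotype. The study compared transcript levels between the strains to find further candidate genes within a Chr 8 locus that modulates infarct volume after ischemic stroke.

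SLC7 proteins carry amino acids across membranes and fall into a pair of branches. The cationic amino acid transporters (Slc7a1, Slc7a2 and Slc7a3) work alone and bring arginine, lysine and ornithine into cells, where arginine feeds the synthesis of nitric oxide, urea and polyamines. Slc7a4 and Slc7a14 resemble them in sequence, but Slc7a4 has shown no transport by itself and Slc7a14 is found in intracellular membranes. The light chains (Slc7a5, Slc7a6, Slc7a8, Slc7a10 and Slc7a11) are exchangers that need a heavy chain, Slc3a2 (CD98), to reach the cell surface. In brain they carry large neutral amino acids and drugs such as L-DOPA over the blood-brain barrier (Slc7a5), release glycine and D-serine (Slc7a10), and import cystine for glutathione in exchange for glutamate (Slc7a11).

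Slc7a2 (ENSMUSG00000031596) lies on the plus strand at chr8:40862396-40922308 of GRCm38, and its coding sequence differs between B6 and both other strains. Positions were taken from the coding SNPs that the study listed for the gene, and the codons were read from the reference transcript Slc7a2-203, which has 12 exons and 658 codons counted from the start codon. In C3H and WSB alike, 7 substitutions were listed relative to B6: S335G and S342A in exon 6, D441E in exon 9, V538A in exon 10, and D623E, A627V and A634V in exon 12. Slc7a2-203 was chosen because its reference codons encoded the most first residues, 7 of 7, so that match is no separate check. It is also the longer of the transcripts that did so. The C3H and WSB allele, put in place of the B6 base in the codon, gave the second residue at 7 of 7. The genome positions of the SNPs were not compared with those of the codons. The 4 stretches of the B6 reference that hold these codons are shown because they carry the sequence difference that accompanies the transcript values of Slc7a2. The affected codons are in capitals.
Slc7a2 codons 328 to 349, chr8:40905654-40905719: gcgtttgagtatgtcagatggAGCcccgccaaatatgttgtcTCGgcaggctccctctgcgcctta
Slc7a2 codons 434 to 448, chr8:40912481-40912525: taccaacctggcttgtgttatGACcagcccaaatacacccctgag
Slc7a2 codons 531 to 545, chr8:40914049-40914093: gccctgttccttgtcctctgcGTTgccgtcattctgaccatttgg
Slc7a2 codons 616 to 641, chr8:40916403-40916480: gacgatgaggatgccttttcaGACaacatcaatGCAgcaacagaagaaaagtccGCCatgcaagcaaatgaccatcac

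Of the 5 annotated transcripts of Slc7a2, only Slc7a2-202 and Slc7a2-203 matched 7 of 7 residues. The transcript Slc7a2-201, of 657 codons, matched 3 of 7, and Slc7a2-204, of 674 codons, and Slc7a2-205, of 10 codons, matched 0 of 7. Residues were compared only by their number from the start codon, which shifts between transcripts of unlike length. The genome positions of the codons were not compared. The counts therefore cannot tell whether the other transcripts lack the affected codons. Splice forms of Slc7a2 are known to differ in their affinity for arginine. The values below are totals per gene and do not separate them.

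Promoter sequence was matched in RefSeq (GRCm38.p6) for 6 of the 10 members, namely Slc7a1, Slc7a6, Slc7a8, Slc7a10, Slc7a11 and Slc7a14. Each promoter spans 250 bases before and 50 bases after the annotated start site. Those of Slc7a11 and Slc7a14 are shown, since these members had the largest fold difference and the smallest adjusted p between WSB and B6. The amino acid response element TGATGCAA, which binds ATF4, was searched on both strands and was found in 0.895% of 32851 promoters of this length. In Slc7a11 it occurred on the gene's strand, with its first base 66 bases before the start site, and again in reverse (TTGCATCA) 47 bases before it. The palindromic E-box CACGTG was found in 7.15% of promoters, and in Slc7a14 it began 69 bases before the start site. Both sequences are given in the direction of the gene with the motifs in capitals.
Slc7a11, chr3:50443564-50443863, minus strand: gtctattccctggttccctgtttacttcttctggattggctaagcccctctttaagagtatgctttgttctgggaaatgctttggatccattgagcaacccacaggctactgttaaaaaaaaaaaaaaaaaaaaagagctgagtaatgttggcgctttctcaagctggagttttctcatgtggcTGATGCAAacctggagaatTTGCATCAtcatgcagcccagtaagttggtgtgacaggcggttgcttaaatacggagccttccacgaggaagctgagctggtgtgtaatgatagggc
Slc7a14, chr3:31310270-31310569, minus strand: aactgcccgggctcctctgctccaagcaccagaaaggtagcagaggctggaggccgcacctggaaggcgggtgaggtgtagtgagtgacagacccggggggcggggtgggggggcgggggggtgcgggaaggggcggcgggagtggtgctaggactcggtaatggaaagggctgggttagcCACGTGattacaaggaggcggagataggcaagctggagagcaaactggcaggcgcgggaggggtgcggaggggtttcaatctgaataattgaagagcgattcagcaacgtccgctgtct

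Transcript levels are given in FPKM, fragments per kilobase of exon length scaled for library size. Between 16317439 and 21562429 reads per library lay on genes. C3H replicate 2 stood apart: 956 genes were differentially expressed between C3H and B6 with it and 2301 without it, so C3H values are also given without that mouse where it matters. Markers of cortical neurons and astrocytes were present in every library, with 0 of 8 markers of each list absent, but the libraries differed in neighbouring tissue. Summed choroid plexus markers ranged from 65.1 to 765 FPKM within B6 alone, striatum markers from 77.0 to 432 FPKM over all mice, and oligodendrocyte markers from 427 to 617 FPKM in WSB against 784 to 982 FPKM in B6. Blood markers summed to 632 to 1010 FPKM in C3H, above 217 to 254 FPKM in B6 and 249 to 329 FPKM in WSB, with 3 of 5 higher in C3H than in B6 and 3 of 5 lower in WSB than in C3H. Fold change between C3H and B6 also followed the GC content of the transcript (Spearman 0.49 over 12940 genes), more than between WSB and B6 (0.11 over 13036 genes). Values with each library's GC trend removed are given beside the results they moved most. The part of neighbouring tissue and blood in the values below was not tested. In bulk cortex, fewer cells of a type and less RNA per cell cannot be told apart.

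All 10 members were expressed and all passed the filter of a mean of 0.1 FPKM in every comparison. Slc7a5 had the highest mean level over the 9 mice, with 14.98 FPKM, followed by Slc7a4 with 14.8, Slc7a8 with 12.9, Slc7a10 with 12.8 and Slc7a14 with 9.30. Slc7a6 was intermediate, with 5.88 FPKM. The cationic transporters and Slc7a11 had the lowest mean levels, with 3.25 for Slc7a1, 2.93 for Slc7a11, 2.59 for Slc7a2 and 1.94 for Slc7a3. Ranges over the 9 mice overlapped between each pair of neighbours in this order except Slc7a6 and Slc7a1, although Slc7a10 was above Slc7a14 within 9 of 9 mice. By strain mean, Slc7a11 stood 7th of the 10 in B6 and in C3H but 10th in WSB. Its last place rested on WSB replicate 2, with 0.904 FPKM beside 2.17 for Slc7a3. In WSB replicates 1 and 3 it was above Slc7a3, with 2.10 against 1.83 and 1.99 against 1.39 FPKM. Slc7a10 moved by strain mean from 4th in B6 and C3H to 2nd in WSB. In WSB replicate 1 it was below Slc7a4, with 12.5 against 15.3 FPKM. The summed level of the 10 members was 86.1 ± 2.59 FPKM in B6, 77.9 ± 4.31 in C3H and 80.3 ± 1.06 in WSB (SD, n = 3).

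**Figure D1:**
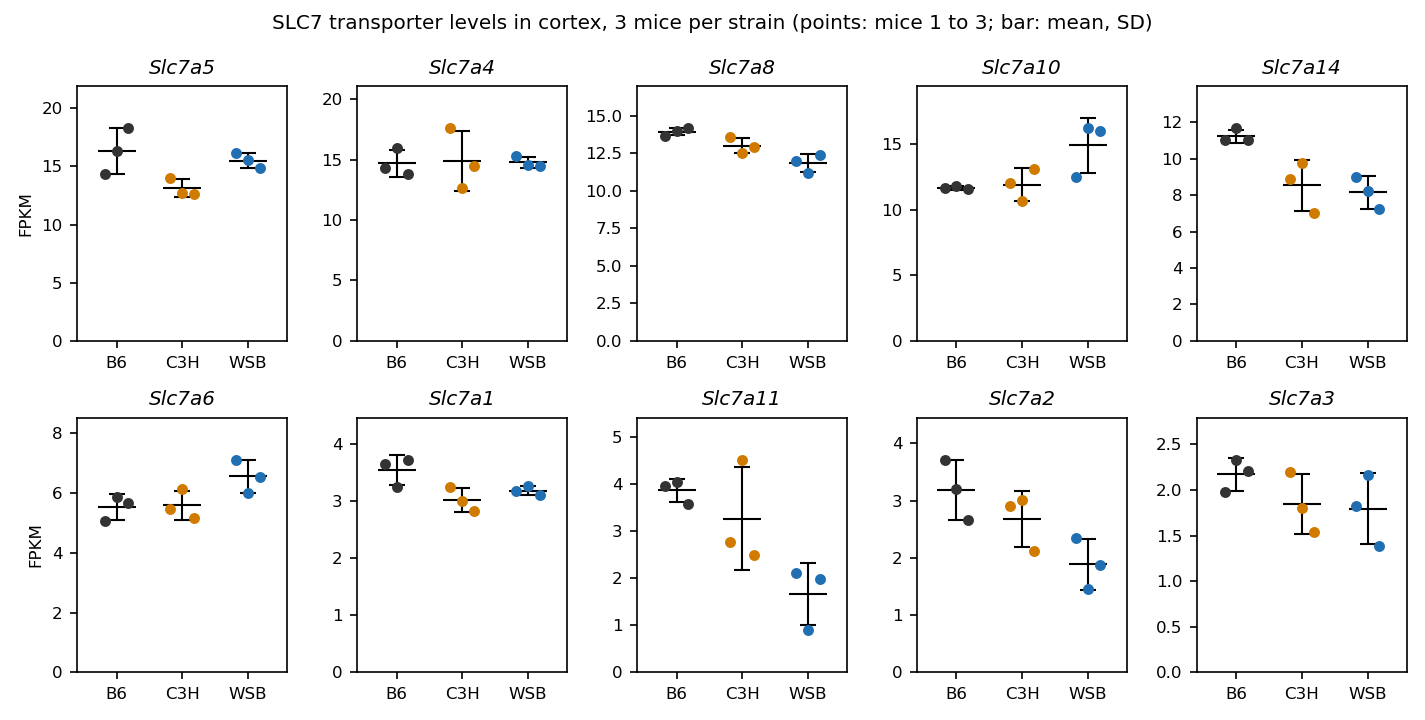
FPKM of each SLC7 member (y axis, from 0) in the 3 mice of B6, C3H and WSB (x axis), ordered by mean level. Points are mice, long bars are strain means and whiskers are SD; the WSB mice lie wholly below the B6 mice for Slc7a2, Slc7a8, Slc7a11 and Slc7a14 and wholly above them for Slc7a6 and Slc7a10.

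Pairs of strains were compared with limma on log2(FPKM + 0.1), and p-values were adjusted by Benjamini-Hochberg over all genes tested with a threshold of 0.05. The p-values set the difference of strain means against the spread between mice within strains, which the fit moderates with that of all genes tested. Between WSB and B6, 1 of the 10 members was differentially expressed, Slc7a14, against 5.90% of the 20746 genes tested (3.09% lower and 2.81% higher in WSB). No member passed between C3H and B6, where 4.64% of 20602 genes did, or between WSB and C3H, where 5.74% of 20607 genes did. Every WSB mouse was above every B6 mouse for 2 members and below for 4, beside 13.0% and 13.1% of all genes. For C3H against B6 these counts were 0 and 3, beside 14.9% and 14.0%, and for WSB against C3H they were 1 and 2, beside 14.2% and 14.4%. At an unadjusted p under 0.05 the members counted 6 of 10 between WSB and B6, 2 of 10 between C3H and B6 and 3 of 10 between WSB and C3H, against 20.4%, 24.1% and 23.8% of all genes. The median log2 fold change of the members was -0.19 in WSB vs B6 and -0.23 in C3H vs B6, beside 0.00 for all genes in both, and the B6 mice are shared by these comparisons. In WSB vs C3H it was -0.02, beside 0.01 for all genes.

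**Figure D2:**
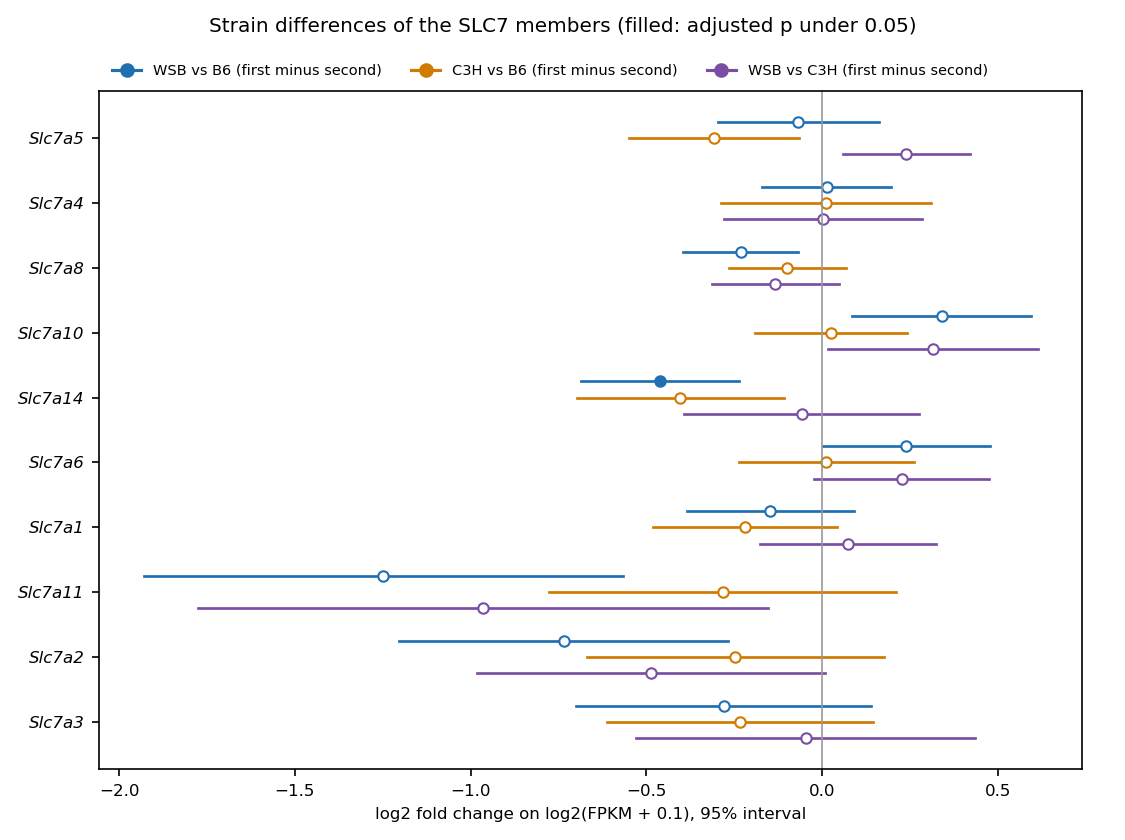
Log2 fold change (x axis, on log2(FPKM + 0.1)) of each SLC7 member (y axis) in 3 strain comparisons, with 95% intervals; filled points passed an adjusted p of 0.05. Only Slc7a14 in WSB vs B6 is filled, at -0.46, while the largest difference is that of Slc7a11 in WSB vs B6, at -1.25, with a wide interval of -1.93 to -0.57.

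Among the cationic transporters, Slc7a2, which supplies arginine in activated macrophages and glia, had the largest difference between strains. Its level was 3.71, 3.20 and 2.66 FPKM in the B6 mice, 2.91, 3.01 and 2.12 FPKM in the C3H mice, and 2.34, 1.45 and 1.88 FPKM in the WSB mice. Every WSB mouse was thus below every B6 mouse, whereas C3H overlapped both. The reads behind these levels numbered 517 to 607 per B6 mouse, 375 to 533 per C3H mouse and 230 to 356 per WSB mouse. The means were 3.19 ± 0.53, 2.68 ± 0.49 and 1.89 ± 0.44 FPKM (SD, n = 3). The log2 fold change in WSB vs B6 was -0.74 (SE 0.20, 95% interval -1.20 to -0.27, limma adjusted p = 0.0859), which missed the threshold. It passed in 1 of 12 processing alternatives, with voom weights on recovered reads, at -0.76 with an adjusted p of 0.0188. In settings with a mouse left out it passed in 0 of 6. Over all alternatives this value lay between -0.89 (without WSB replicate 1) and -0.54 (with a pseudocount of 1), and it was -0.57 without WSB replicate 2. The paper, which tested these mice with a model of read counts, names Slc7a2 among the genes that differ in both coding sequence and expression level. Slc7a2 is absent from its list of genes in the mapped interval that differed between C3H and B6. In C3H, which carries the same 7 substitutions as WSB, the log2 fold change against B6 was -0.25 (SE 0.18, 95% interval -0.67 to 0.17, limma adjusted p = 0.436), and between WSB and C3H it was -0.49 (95% interval -0.98 to 0.01, limma adjusted p = 0.215). Over all alternatives the value of C3H against B6 lay between -0.37 (without B6 replicate 3) and -0.08 (with the GC trend removed). It was -0.34 without C3H replicate 2, -0.09 without C3H replicate 3 and -0.13 without B6 replicate 1. That of WSB against C3H lay between -0.65 (without WSB replicate 1) and -0.32 (without WSB replicate 2), and was -0.63 with the GC trend removed. Summed microglia markers were 78.6 to 81.0 FPKM in WSB, below the 82.2 to 92.0 FPKM of B6, with 1 of 6 lower in WSB than in B6, and 84.7 to 101 FPKM in C3H. Their part in the result for Slc7a2 was not tested. The non-coding Gm26584 overlaps 635 of the 9135 exon bases of Slc7a2 on the opposite strand and was listed at 0 in every library.

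Slc7a1 (chr5:148327410-148399904, minus strand), the widely expressed cationic transporter, varied little. The B6 mice had 3.66, 3.25 and 3.72 FPKM, the C3H mice 3.25, 3.003 and 2.83 FPKM and the WSB mice 3.19, 3.27 and 3.11 FPKM. Both other strains overlapped B6, with log2 fold changes of -0.15 in WSB (95% interval -0.38 to 0.09, limma adjusted p = 0.487) and -0.22 in C3H (95% interval -0.48 to 0.04, limma adjusted p = 0.270). Slc7a3 (chrX:101079210-101086020, minus strand), the cationic transporter known mainly from neurons, was the lowest member on average. Its levels ranged from 1.98 to 2.33 FPKM in B6, from 1.54 to 2.20 in C3H and from 1.39 to 2.17 in WSB, on 96 to 178 reads a library. These ranges overlapped, and the log2 fold changes against B6 were -0.28 in WSB (limma adjusted p = 0.449) and -0.23 in C3H (limma adjusted p = 0.409). Leaving out 1 mouse moved them to between -0.42 (without WSB replicate 2) and -0.12 (without WSB replicate 3) in WSB and to between -0.36 (without C3H replicate 1) and -0.12 (without C3H replicate 3) in C3H. Of the FPKM summed over Slc7a1, Slc7a2 and Slc7a3, Slc7a2 made up 35.7% ± 4.43 in B6, 35.3% ± 2.99 in C3H and 27.5% ± 5.64 in WSB (SD, n = 3), with ranges of 30.9% to 39.7% in B6 and 21.1% to 31.9% in WSB that overlapped.

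Slc7a14 (ENSMUSG00000069072, chr3:31202858-31310378, minus strand), an orphan member of intracellular membranes that is linked to inherited retinal degeneration, was the only member differentially expressed in the analysis. Its level was 11.0, 11.7 and 11.0 FPKM in the B6 mice, 8.87, 9.73 and 6.999 FPKM in the C3H mice and 8.99, 8.23 and 7.21 FPKM in the WSB mice. Every C3H and every WSB mouse was below every B6 mouse, and C3H and WSB overlapped. In WSB it was 1.38-fold lower than in B6 (log2 fold change -0.46, SE 0.10, limma adjusted p = 0.0356). In C3H the log2 fold change was -0.40 (SE 0.13, 95% interval -0.70 to -0.11), which missed the threshold (limma adjusted p = 0.118). Between WSB and C3H it was -0.06 (95% interval -0.39 to 0.28, limma adjusted p = 0.835).

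The call of Slc7a14 in WSB depended on the choice of mice and of the variance model. It remained without WSB replicate 1, and it was lost without B6 replicate 1 (limma adjusted p = 0.0857), B6 replicate 2 (0.136), B6 replicate 3 (0.101), WSB replicate 2 (0.0902) or WSB replicate 3 (0.0821). It was also lost without the eBayes trend (0.0955) and with all 3 strains in one fit (0.0611). The log2 fold change stayed between -0.54 and -0.38 over all alternatives. Without C3H replicate 2, Slc7a14 also passed in C3H vs B6 (log2 fold change -0.50, limma adjusted p = 0.0444), when 2301 of 20562 genes passed, and without C3H replicate 3 the log2 fold change was -0.27 (limma adjusted p = 0.251). Summed markers of cortical neurons were 883 to 955 FPKM in B6, 803 to 905 FPKM in C3H and 839 to 936 FPKM in WSB, with 0 of 8 differentially expressed between WSB and B6, 1 of 8 lower in C3H than in B6 and 1 of 8 higher in WSB than in C3H. Their part in the result for Slc7a14 was not tested.

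Slc7a4 (chr16:17572018-17583214, minus strand), the other orphan of the cationic branch, was as abundant as the leading light chains and did not separate the strains. Its level ranged from 13.8 to 15.95 FPKM in B6, from 12.7 to 17.6 FPKM in C3H and from 14.5 to 15.3 FPKM in WSB. The log2 fold change was 0.01 in WSB vs B6 (95% interval -0.17 to 0.20, limma adjusted p = 0.952) and 0.01 in C3H vs B6 (95% interval -0.29 to 0.31, limma adjusted p = 0.969), and its sign turned with the mice left out and with the GC trend removed. Of its 4153 exon bases, 554 are shared with P2rx6 on the opposite strand, which had at most 1.49 FPKM.

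Slc7a11 (ENSMUSG00000027737, chr3:49892526-50443614, minus strand), the cystine-glutamate exchanger, had the largest fold difference of all members. Its level was 3.96, 4.05 and 3.58 FPKM in the B6 mice, 2.77, 4.50 and 2.50 FPKM in the C3H mice and 2.10, 0.904 and 1.99 FPKM in the WSB mice. The WSB mice were below all mice of both other strains. Within C3H, replicate 2 was above every B6 mouse while the other mice were below them. The means were 3.86 ± 0.25 FPKM in B6, 3.26 ± 1.09 in C3H and 1.66 ± 0.66 in WSB (SD, n = 3), and the reads on the gene numbered 986 to 1138, 675 to 1215 and 218 to 506.

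In WSB vs B6 the log2 fold change of Slc7a11 was -1.25 (SE 0.29, 95% interval -1.93 to -0.57), a ratio of 2.38, and it missed the threshold narrowly (limma adjusted p = 0.0532). It passed in 6 of 12 processing alternatives, with adjusted p-values down to 0.00404 with voom weights. WSB replicate 2 carried much of the size and of the spread: without it the log2 fold change was -0.88 with an adjusted p of 0.0152. In C3H vs B6 it was -0.28 (SE 0.21, limma adjusted p = 0.446) with all mice and -0.53 (limma adjusted p = 0.0402) without C3H replicate 2. The difference between C3H and B6 was not stable, since it was -0.12 (limma adjusted p = 0.786) without C3H replicate 3 and -0.01 (limma adjusted p = 0.982) with the GC trend removed. Between WSB and C3H it was -0.97 (SE 0.35, 95% interval -1.78 to -0.16, limma adjusted p = 0.153), and -0.60 (limma adjusted p = 0.251) without WSB replicate 2. Slc7a11 is known from astrocytes and from the meninges. Summed astrocyte markers were 746 to 811 FPKM in B6 and 740 to 762 FPKM in WSB. Summed leptomeningeal markers were 627 to 771 FPKM in B6 and 740, 529 and 537 FPKM in WSB replicates 1, 2 and 3. The overlap of the leptomeningeal ranges thus rested on WSB replicate 1. Of either list, 0 of 8 markers were differentially expressed between these strains. Their part in the result for Slc7a11 was not tested.

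Slc7a10 (chr7:35186385-35201114, plus strand), the exchanger of glycine, D-serine and other small neutral amino acids, had its highest mean level in WSB. The B6 mice had 11.6, 11.8 and 11.6 FPKM, the C3H mice 12.0, 10.6 and 13.1 FPKM and the WSB mice 12.5, 16.2 and 16.0 FPKM. Every WSB mouse was above every B6 mouse, but WSB replicate 1 lay within the C3H range. The log2 fold change was 0.34 in WSB vs B6 (SE 0.11, 95% interval 0.09 to 0.59, limma adjusted p = 0.131) and 0.32 in WSB vs C3H (SE 0.13, limma adjusted p = 0.192), and in C3H vs B6 it was 0.02 (95% interval -0.19 to 0.24), or -0.11 with the GC trend removed. In WSB vs C3H it passed with the GC trend removed, at 0.42 with an adjusted p of 0.0417. Without WSB replicate 1 it passed in WSB vs B6, at 0.46 with an adjusted p of 0.0281. On the opposite strand Lrp3, which reached 25.8 FPKM, shares 377 of the 2111 exon bases of Slc7a10. The strand setting of the counting is not given in the sources used here, so reads from those bases cannot be told apart.

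**Figure D3:**
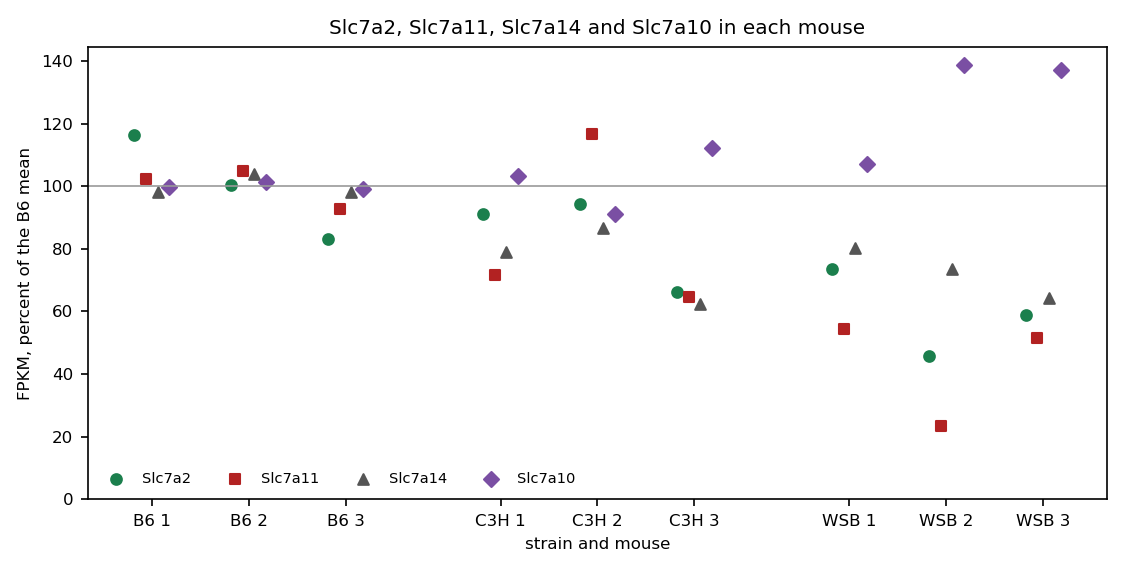
FPKM of Slc7a2, Slc7a11, Slc7a14 and Slc7a10 in each mouse (x axis), as a percent of the B6 mean of the same gene (y axis, from 0; grey line at the B6 mean). WSB replicate 2 has the lowest Slc7a2 (45.6%) and Slc7a11 (23.4%) and the highest Slc7a10 (139%), while C3H replicate 2 has the highest Slc7a11 of all mice (117%).

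Slc7a5 (chr8:121881150-121907694, minus strand), the large neutral amino acid transporter of the blood-brain barrier, was set apart in C3H rather than in WSB. Its level was 14.4, 16.3 and 18.3 FPKM in the B6 mice, 14.0, 12.7 and 12.6 FPKM in the C3H mice and 16.1, 15.6 and 14.8 FPKM in the WSB mice. Every C3H mouse was below every mouse of both other strains. The log2 fold change was -0.31 in C3H vs B6 (SE 0.10, limma adjusted p = 0.138), 0.24 in WSB vs C3H (SE 0.08, limma adjusted p = 0.125) and -0.07 in WSB vs B6 (95% interval -0.30 to 0.16, limma adjusted p = 0.764). The transcript is rich in GC (56.3%), and once each library's GC trend was removed Slc7a5 passed in C3H vs B6 (-0.44, limma adjusted p = 0.0265) and in WSB vs C3H (0.34, limma adjusted p = 0.0486). Summed endothelial markers were 64.9 to 70.7 FPKM in B6, 64.8 to 80.2 FPKM in C3H and 56.3 to 60.4 FPKM in WSB. The ranges of C3H and B6 overlapped, with 0 of 8 markers differentially expressed between them. In WSB, 1 of 8 was lower than in B6 and 1 of 8 lower than in C3H. Their part in the result for Slc7a5 was not tested.

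Slc7a8 (chr14:54722209-54781946, minus strand), a broader neutral amino acid exchanger, varied little within strains, with 13.7, 14.0 and 14.1 FPKM in the B6 mice, 13.6, 12.5 and 12.9 FPKM in the C3H mice and 12.0, 11.2 and 12.4 FPKM in the WSB mice. The 3 strains did not overlap, in the order B6, C3H, WSB. Steps were small, with a log2 fold change of -0.23 in WSB vs B6 (SE 0.07, limma adjusted p = 0.115) and of -0.10 in C3H vs B6 (SE 0.07, limma adjusted p = 0.427), or -0.17 (limma adjusted p = 0.123) with the GC trend removed. Slc7a6 (chr8:106168857-106198706, plus strand), which exchanges cationic for neutral amino acids with sodium, had 5.05, 5.87 and 5.66 FPKM in the B6 mice, 5.45, 6.11 and 5.16 FPKM in the C3H mice and 7.09, 6.002 and 6.53 FPKM in the WSB mice. The WSB mice were above all B6 mice but overlapped C3H. Its log2 fold change in WSB vs B6 was 0.24 (SE 0.10, limma adjusted p = 0.242), and in C3H vs B6 it was 0.01.

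Slc7a5 and Slc7a6 lie on Chr 8 with Slc7a2, and the remaining members lie on other chromosomes. Only Slc7a2 is inside the Chr 8 intervals that the study mapped, and Slc7a5 and Slc7a6 are outside them. In WSB vs B6, Slc7a2, Slc7a5 and Slc7a6 had log2 fold changes of -0.74, -0.07 and 0.24, which do not share a sign.

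The heavy chain Slc3a2, the partner of these light chains, was more abundant than any of them, with 34.0 ± 2.26 FPKM in B6, 37.6 ± 2.24 FPKM in C3H and 31.1 ± 1.85 FPKM in WSB (SD, n = 3). Every WSB mouse was below every C3H mouse, and B6 overlapped both. Its log2 fold change was -0.13 in WSB vs B6 (limma adjusted p = 0.432), 0.15 in C3H vs B6 (limma adjusted p = 0.310) and -0.27 in WSB vs C3H (SE 0.08, limma adjusted p = 0.0949). Summed over 6 light chains, the 5 members and Slc7a7, the FPKM of light chains was 1.54 ± 0.04 times that of Slc3a2 in B6, 1.27 ± 0.08 times in C3H and 1.64 ± 0.12 times in WSB (SD, n = 3). The ratio ranged from 1.49 to 1.57 in B6 and from 1.18 to 1.33 in C3H, without overlap, and reached 1.52 to 1.77 in WSB. Most of the remaining SLC7 genes were nearly silent in cortex. Slc7a7, known from macrophages and epithelia, had 0.761 ± 0.074 FPKM in B6 and 0.423 ± 0.179 in WSB (SD, n = 3; log2 fold change -0.78, limma adjusted p = 0.223). Its value was -0.46 without WSB replicate 1, which had 12 reads, and -0.31 with a pseudocount of 1. Slc7a12 and Slc7a13 were listed at 0 in every library, the kidney and gut transporter Slc7a9 had at most 6 reads, Slc7a15 at most 2, and Slc3a1, the heavy chain of Slc7a9, at most 2.

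Genes with a profile most like that of 3 members over the 9 libraries were sought among 13009 genes of at least 1 FPKM, by Pearson correlation of log2(FPKM + 0.1). The 9 points share strains and libraries, so the values only describe likeness. For Slc7a2 they were Ptn, a secreted growth factor (r = 0.97), Ccnd2, a cyclin (0.96), and Hps5, a subunit of a complex for lysosome-related organelles (0.96). For Slc7a11 they were Uaca (0.97), Mrc1, the mannose receptor of macrophages (0.97), and Helq, a DNA helicase (0.97). For Slc7a14 they were Zscan12 (0.97), the Polycomb component Pcgf3 (0.96) and the calcium channel subunit Cacna1e (0.96). Among the members themselves, Slc7a2 and Slc7a11 had a correlation of 0.92, and Slc7a10 ran opposite to both (-0.88 with Slc7a2 and -0.89 with Slc7a11). As the plot of single mice shows, WSB replicate 2 is an extreme of all 3 genes.

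Genes that use or sense the amino acids carried by these transporters were followed as 4 lists. In the list of arginine use, 23 of 24 genes were tested in WSB vs B6 and 22 in C3H vs B6. Of all genes tested, 5.90% passed in WSB vs B6 and 4.64% in C3H vs B6. In both comparisons only Odc1, the rate-limiting enzyme of polyamine synthesis from ornithine, was differentially expressed in the list. Its level was 21.3 ± 0.95 FPKM in B6, 13.3 ± 1.34 in C3H and 13.1 ± 1.31 in WSB (SD, n = 3). Odc1 fell by 0.70 on the log2 scale in WSB (SE 0.09, limma adjusted p = 0.00460) and by 0.68 in C3H (SE 0.09, limma adjusted p = 0.00669), and every mouse of both strains was below every B6 mouse. The call held in every alternative run. The rest of the list, including the arginases, the nitric oxide synthases and the enzymes of arginine recycling, did not pass in any comparison where they were tested, and the list's median log2 fold change was 0.00 in WSB vs B6 and 0.05 in C3H vs B6.

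Of the 20 other amino acid transporters, 18 were tested in each comparison with B6 and 17 in WSB vs C3H. Of all genes tested, 4.64% passed in C3H vs B6 and 5.74% in WSB vs C3H. Slc38a3, a glutamine transporter of astrocytes, was higher in C3H than in B6 (log2 fold change 0.56, SE 0.11, limma adjusted p = 0.0367) and lower in WSB than in C3H (-0.49, SE 0.10, limma adjusted p = 0.0367), with 11.6 ± 1.05 FPKM in B6, 17.1 ± 2.06 in C3H and 12.1 ± 0.43 in WSB (SD, n = 3). No other gene of the list passed. The call of Slc38a3 was kept in 1 of 6 settings with a mouse left out in each comparison. It was kept in 8 of 12 processing alternatives in C3H vs B6 and in 9 of 12 in WSB vs C3H. In the list of cystine and glutathione genes, all 16 were tested and Nqo1, a quinone reductase induced by oxidative stress, was higher in WSB than in B6 (0.82, SE 0.14, limma adjusted p = 0.0188) and than in C3H (0.71, SE 0.11, limma adjusted p = 0.0127). It was the only gene of the list to pass, beside 5.90% of all genes in WSB vs B6 and 5.74% in WSB vs C3H. The Nqo1 level was 2.90 ± 0.51 FPKM in B6, 3.12 ± 0.18 in C3H and 5.17 ± 0.46 in WSB (SD, n = 3), and its calls were kept in 2 and 3 of the 6 settings with a mouse left out. The enzymes of glutathione synthesis in the list, downstream of the cystine that Slc7a11 imports, did not pass in any comparison.

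The 20 genes of the amino acid response were all tested. Over all genes, 2.38% were higher and 2.26% lower in C3H than in B6, and 2.61% were higher and 3.13% lower in WSB than in C3H. In WSB vs B6, 2 were lower and 0 higher, Aldh18a1, which starts proline synthesis (log2 fold change -0.80, SE 0.08, limma adjusted p = 0.00195), and Phgdh, which starts serine synthesis (-0.42, SE 0.06, limma adjusted p = 0.00781). Both were also lower in WSB than in C3H. Phgdh had 35.6 ± 1.06 FPKM in B6, 40.0 ± 3.38 in C3H and 26.6 ± 0.41 in WSB, and Aldh18a1 6.62 ± 0.24, 6.06 ± 0.37 and 3.77 ± 0.12 (SD, n = 3). In C3H vs B6, 2 were higher and 0 lower, the stress-induced factor Ddit3 (0.50, SE 0.09, limma adjusted p = 0.0244) and the translation inhibitor Eif4ebp1 (0.82, SE 0.15, limma adjusted p = 0.0231). The same 2 genes were lower in WSB than in C3H, at -0.61 and -0.78, which made 4 of 20 lower in that comparison. Calls of Ddit3 and Eif4ebp1 were kept in 1 or 2 of the 6 settings with a mouse left out. The median log2 fold change of the list was -0.12 in WSB vs B6, 0.06 in C3H vs B6 and -0.14 in WSB vs C3H, beside 0.00, 0.00 and 0.01 for all genes.

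**Figure D4:**
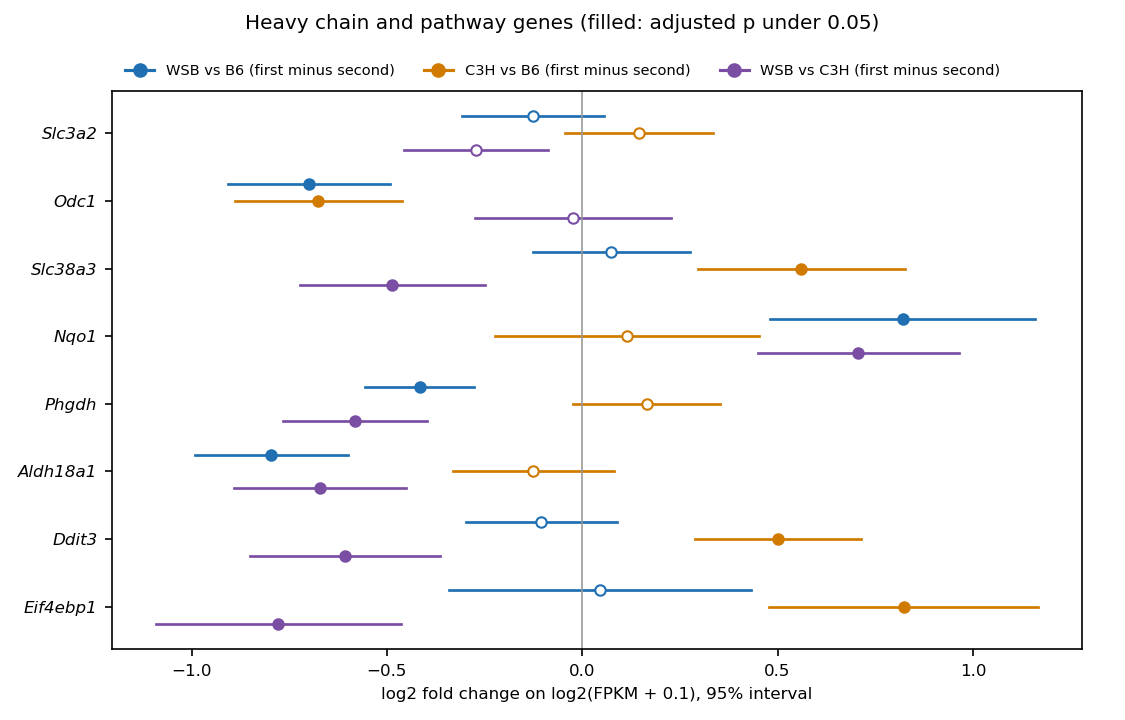
Log2 fold change (x axis, on log2(FPKM + 0.1)) with 95% intervals of the heavy chain Slc3a2 and of the genes of the 4 lists that were differentially expressed in at least 1 comparison (y axis); filled points passed an adjusted p of 0.05. Odc1 is lower in both WSB and C3H than in B6, Aldh18a1 and Phgdh are lower in WSB, Nqo1 is higher in WSB, and Slc38a3, Ddit3 and Eif4ebp1 are higher in C3H.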

How the data were processed

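Cortex of 9 male mice was sequenced as paired-end reads of 150 bp. Reads were trimmed (Cutadapt) and counted per gene (HTSeq) by the authors, who deposited the levels as FPKM. STAR and DESeq2 are also named in the submitters' processing notes, without versions. Counting used a reference built from B6, and what strain differences in sequence do to the counts was not tested. FPKM times exon length was a whole multiple of 1 step per library within 0.01, which gave reads per gene. Strains were compared with limma 3.58.1 in R 4.3.3 (lmFit, eBayes with trend, two-sided) on log2(FPKM + 0.1), leaving out genes whose mean was under 0.1 FPKM; the fit was tested on simulated data. The members and lists were chosen with earlier results of these data known. Named genes are all members, the remaining SLC7 genes and SLC3 heavy chains, genes of the 4 lists past the threshold in any comparison, and the 3 genes most like Slc7a2, Slc7a11 and Slc7a14. Codons came from GENCODE M21 (GRCm38). Protein sequences were not used here. Alternatives covered pseudocounts, filters, scaling, variance models, GC content, the genes tested, all strains in one fit, a replicate block and leaving out each mouse.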

Additional observations from a re-analysis of the deposited data

How the results depend on the processing

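Between WSB and B6, 1 member passed in the main analysis, Slc7a14. The count was 2 with a pseudocount of 1, with a filter of 1 FPKM, with the GC trend removed and with protein-coding genes only (Slc7a11 and Slc7a14 each time), 3 with voom weights (Slc7a2 in addition), 0 without the eBayes trend, and 1 with all strains in one fit, where it was Slc7a11 and not Slc7a14 (adjusted p = 0.0611). With the replicate number as a block it was 0 (Slc7a14, adjusted p = 0.0698), and in C3H vs B6 and WSB vs C3H the block left 0 as before. The numbers do not pair the mice: correlations of same-numbered mice ranged from -0.065 to 0.053, and 2 of 9 libraries correlated best with their own number. Leaving out 1 mouse gave 0 to 2 in WSB vs B6 (0 without any single B6 mouse or without WSB replicate 3) and 0 to 2 in C3H vs B6 (2 without C3H replicate 2), and 0 in WSB vs C3H. With the GC trend removed, 1 member passed in C3H vs B6 and 2 in WSB vs C3H (Slc7a10 at 0.42 besides Slc7a5). The cause of these shifts was not tested.

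Signs turned only in comparisons where the member did not pass. In WSB vs B6, Slc7a4 was -0.0105 with the GC trend removed and -0.0302 to 0.0744 over the alternatives, and Slc7a5 was -0.1554 to 0.0165 with 1 mouse left out. In C3H vs B6, Slc7a4 was -0.0995 with the GC trend removed and -0.0012 when rescaled to total reads, Slc7a6 was -0.0002 when rescaled to total reads, and Slc7a10 was -0.1148 with the GC trend removed. Leaving out 1 mouse gave -0.1134 to 0.1205 for Slc7a4, -0.0542 to 0.0649 for Slc7a6 and -0.0446 to 0.1036 for Slc7a10 there, and in WSB vs C3H it gave -0.1865 to 0.1168 for Slc7a3, -0.1074 to 0.1265 for Slc7a4 and -0.1932 to 0.0419 for Slc7a14. Over all genes, the block moved the calls from 1224 to 754 (WSB vs B6), from 956 to 480 (C3H vs B6) and from 1182 to 531 (WSB vs C3H), and leaving out C3H replicate 2 moved the last 2 to 2301 and 2002. With voom weights 1488 genes passed in C3H vs B6. With 1 other mouse left out the counts were 651 to 825, 498 to 569 and 475 to 715.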

Other observations

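The promoters of the other matched members held few of the motifs searched. The antioxidant response element TGACNNNGC, where N is any base, was found in 12.4% of 32851 promoters of the same length on either strand. Slc7a1 held it in reverse, 11 bases before 1 of its 2 annotated start sites, and Slc7a6 held 1 copy, which appears 68 bases before 1 of its start sites and 1 base before the other. The cAMP response element TGACGTCA, found in 1.79% of promoters, was in none of the member promoters, and Slc7a8 and Slc7a10 held none of the 4 motifs. These matches describe letters in a window of 300 bases and no more.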
